A study of Mus musculus with 9 samples.

Results

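The cytosolic ribosomal protein genes were taken as the protein-coding mouse genes whose GENCODE M21 symbol begins with Rpl or Rps and a digit, or with Rplp and a digit, together with Rpsa and without the S6 kinases and Rps19bp1. This rule found 91 of the 53379 gene identifiers in the count tables. Of the 91 genes, 46 code for proteins of the large subunit, 31 for proteins of the small subunit and 8 for paralogues (Rpl3l, Rpl7l1, Rpl10l, Rpl22l1, Rpl36al, Rpl39l, Rps27l and Rps27rt). The other 6 carry pseudogene symbols but are annotated as protein-coding. Some genes that also code for ribosomal proteins, such as Fau and Rack1, lie outside the symbol rule.

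RNA was sequenced from GFP-positive cells sorted by flow cytometry out of C57Bl6DBa2 mouse forebrains at E16.5. Embryos had been electroporated in utero 2 days earlier, at E14.5. The first group of 3 libraries received pCAGGS-GemC1, the second group of 3 received pCAAGS-Mcidas (spelled so in the labels), and the control group of 3 received H2B-GFP, a histone-tagged reporter. The protocol names the reporter as delivered "and/or" the factor plasmids, and all 9 libraries come from cells sorted for GFP. Both factors were therefore supplied from plasmids to the cells that the electroporation reached, and the labels say neither the sex nor the number of the embryos behind a library. Both factors belong to the geminin family of nuclear proteins and switch on the multiciliated cell programme, and the stated question of the series was how GemC1 does so.

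Each cytosolic ribosome joins a small subunit, which reads the messenger RNA, to a large subunit, which forms the peptide bond, and cells make the proteins of both subunits in near-equal numbers. The messenger RNAs of most ribosomal proteins begin with a short run of pyrimidines (C and T in the DNA) at the transcription start, the 5′ terminal oligopyrimidine tract, through which growth signals set their translation together. Unassembled ribosomal proteins such as Rpl5, Rpl11 and Rpl23 bind Mdm2 and thereby stabilise p53, and RPL26 of human cells increases translation of p53 messenger RNA after DNA damage. The title of the series names p53, so these genes are described first among the members with roles outside the ribosome.

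The start sites of the genes on which the results turn are shown here, because the pyrimidine run is the feature for which ribosomal protein genes are known. Each line gives 20 bases before and 20 bases from the annotated transcription start, from RefSeq on build GRCm38.p6, with the longest run of C and T in capitals. Where RefSeq has several starts, the one with the longest run is printed.
Rpl26, chr11:68901546-68901585, plus strand: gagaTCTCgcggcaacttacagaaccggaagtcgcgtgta
Rplp2, chr7:141447631-141447670, plus strand: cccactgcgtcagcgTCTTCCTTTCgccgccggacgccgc
Rps27l, chr9:66946066-66946105, plus strand: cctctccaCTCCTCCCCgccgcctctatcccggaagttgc
Rps27, chr3:90213629-90213668, minus strand: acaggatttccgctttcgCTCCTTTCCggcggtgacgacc
Rps24, chr14:24490658-24490697, plus strand: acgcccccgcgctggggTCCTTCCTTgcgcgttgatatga
Rps6, chr4:86857348-86857387, minus strand: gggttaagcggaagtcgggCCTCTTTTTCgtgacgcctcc
The longest run was 10 bases in Rplp2 and Rps6, 9 bases in Rps27l, Rps27 and Rps24, and 4 bases in the Rpl26 window. Counted from the annotated start, the runs of Rplp2 (from -5), Rps27 (from -2), Rps24 (from -3) and Rps6 (from -1) crossed it. The runs of Rps27l (from -12) and Rpl26 (from -16) lay wholly before it. RefSeq windows matched 65 of the 91 genes, and 57 of the 77 subunit genes. A run of at least 8 bases of C or T in this 40-base window stood in 29 of 67 windows of subunit genes (43.3%), against 16.0% of all 32851 windows in the table. On the other strand, as a run of at least 8 bases of A or G, it stood in 7.46% of the subunit gene windows, against 17.7% of all windows. The longest run of C and T had a median of 7 bases in subunit gene windows and 5 bases in all windows, so most of these windows lacked a run of 8. These matches describe letters in a window and were not tied to any measurement here.

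Total counts per library lay between 22914704 (Mcidas replicate 3) and 41163917 (GFP replicate 2). Gmnc, the gene of GemC1, averaged 277 ± 48.6 CPM (the count relative to the scaled library total after TMM scaling) in GemC1 libraries and was at 0 in the 3 GFP libraries (SD, n = 3). Mcidas averaged 70.0 ± 8.67 CPM in GemC1 libraries, 497 ± 105 CPM in Mcidas libraries and 0.667 ± 0.0217 CPM in GFP libraries (SD, n = 3 each). Each plasmid's factor was thus high in the libraries labelled with it, and the GemC1 libraries held Mcidas transcripts as well (log2 fold change over GFP 6.71, edgeR adjusted p = 4.8e-09). The cells are labelled neural progenitors. All 12 listed radial glia markers were detected, with a summed level of 2136 to 2386 CPM in GemC1, 1513 to 2083 CPM in Mcidas and 1396 to 1969 CPM in GFP libraries. All 13 excitatory neuron markers were also detected, with sums of 4423 to 4574 CPM in GemC1, 4646 to 5184 CPM in Mcidas and 5139 to 5795 CPM in GFP libraries, so the sorted cells held neurons or their RNA beside progenitors. In bulk libraries of this kind, fewer cells of a type and less RNA per cell cannot be told apart. The deposited tables of the Mcidas libraries carry another year in their run codes than those of the other 6 libraries. A difference of run between Mcidas and the other groups cannot be told apart from the plasmid.

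The ribosomal protein genes were strongly expressed for their length. Per kilobase of merged exons, the 83 genes that passed the low-count filter had a median level of 41.8 CPM, against 4.46 CPM for all genes tested, and 81 of the 83 lay above that all-gene median. The mitochondrial ribosomal protein genes had a median of 16.0 CPM per kilobase. The large subunit genes had a median of 42.4 CPM per kilobase and the small subunit genes 44.6 CPM per kilobase. Reads can also match processed pseudogenes, so levels are less certain for genes with copies. The 59 subunit genes with a pseudogene named after them had a median of 37.8 CPM per kilobase, and the 18 without one had 58.3 CPM per kilobase. This split follows gene symbols and does not separate genes with copies from genes without. By shared sequence, 73 subunit genes had pseudogenes, among them Rpl11 and Rpl23, which lack one by name.

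High levels over all 9 libraries belonged to Rpl32 (200 CPM per kilobase), Rpl4 (193 CPM per kilobase), Rplp1 of the P stalk (166 CPM per kilobase) and Rpl36 (163 CPM per kilobase). Among subunit genes the lowest were Rpl35a (5.56 CPM per kilobase), Rpl26 (8.70 CPM per kilobase), Rpl29 and Rpl27a (both 10.8 CPM per kilobase) and Rps15a (11.3 CPM per kilobase). The merged exon lengths of these genes ran from 383 bases in Rpl36 to 6270 bases in Rps15a, and length enters the scale directly. The levels also leave out counts on pseudogenes, which came to 185% of the gene's own counts for Rpl26 and 62.7% for Rpl29. The paralogues spread more widely than the subunit genes. Rps27l, at 91.9 CPM per kilobase, stood above most subunit genes, and Rps27rt was at 0.886 CPM per kilobase. Rpl3l, a paralogue of striated muscle, had 16 counts in all 9 libraries together. Rpl39l, known from testis, had 4 counts, and Rpl10l, also a testis gene, had 1 count. Of the genes with pseudogene symbols, Rpl10-ps3 passed the filter, Rpl9-ps6 had 56 counts, Rpl36a-ps1 had 9, and Rpl36-ps4, Rpl9-ps1 and Rps12-ps3 were at 0 in every library. In all, 88 of the 91 genes had a count somewhere, and 8 were not tested.

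**Figure D1:**
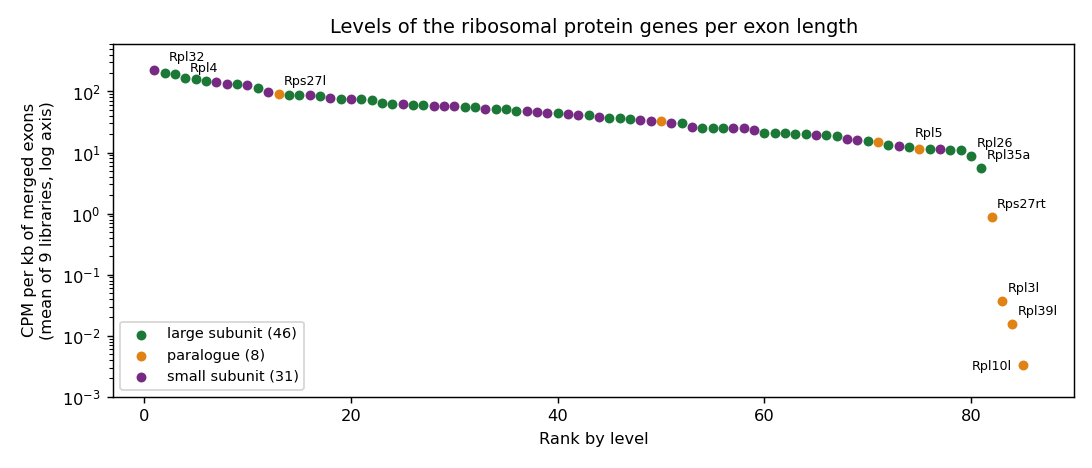
Levels of the 85 ribosomal protein genes and paralogues, as the mean CPM per kilobase of merged exons over 9 libraries on a log axis, against their rank, coloured by subunit. The lowest subunit gene is Rpl35a at 5.56, Rpl32 lies near the top at 200, and 4 paralogues (Rps27rt, Rpl3l, Rpl39l and Rpl10l) lie below all of them.

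All 91 genes together took a small share of the counts. The share was 0.770%, 0.853% and 0.769% for GemC1, 0.676%, 0.696% and 0.706% for Mcidas, and 0.787%, 0.682% and 0.717% for GFP. GemC1 and Mcidas libraries did not overlap, and the GFP libraries ran from within the Mcidas range to within the GemC1 range. The mean share was 1.15 times as high in GemC1 as in Mcidas libraries, 1.09 times as high in GemC1 as in GFP libraries, and 0.951 times as high in Mcidas as in GFP libraries. No test was made of this sum.

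Both subunits moved together between libraries. The ratio of large to small subunit counts was 1.42 ± 0.0209 in GemC1 libraries and 1.44 ± 0.0121 in Mcidas libraries (SD, n = 3 each), and it ran from 1.40 to 1.43 in the 3 GFP libraries. Of the 77 subunit genes, 51, 76 and 58 stood above their own 9-library mean in the 3 GemC1 libraries. In the Mcidas libraries 5, 5 and 9 did so, and in the 3 GFP libraries 74, 6 and 40. Replicates 1 and 2 of the GFP group therefore lay at opposite ends of the range, and the other groups are compared with controls that differed this much among themselves. Across the 9 libraries, the correlation of a subunit gene with the summed level of the family had a median of 0.812, and the lowest values belonged to Rpl5 (0.138) and Rpl35a (0.388). These correlations are descriptions over 9 libraries of 3 groups, and each gene is part of the sum.

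**Figure D2:**
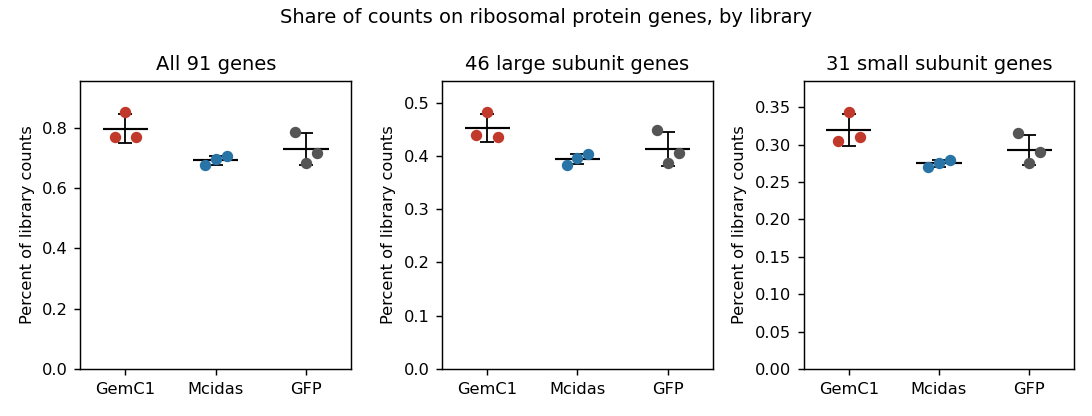
Percent of each library's counts on all 91 ribosomal protein genes, on the 46 large subunit genes and on the 31 small subunit genes. Points are libraries, and lines give mean and SD of 3; the GemC1 libraries (0.769 to 0.853% for all genes) lie above the Mcidas libraries (0.676 to 0.706%), and the GFP libraries span 0.682 to 0.787%.

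**Figure D3:**
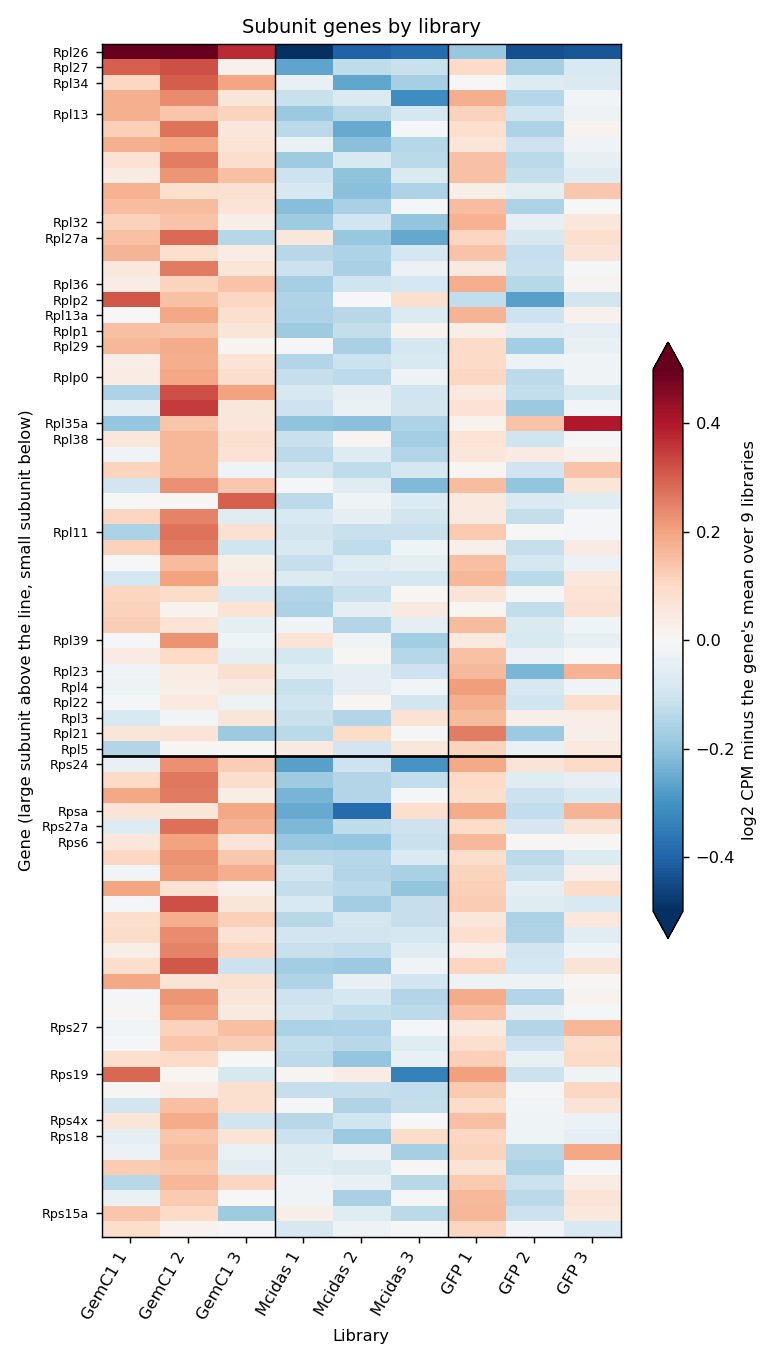
Log2 CPM of the 77 subunit genes in each library, minus the gene's mean over 9 libraries (a pseudocount of 0.5 CPM was added), with genes ordered within each subunit by the GemC1 minus Mcidas difference. GemC1 replicate 2 and GFP replicate 1 are red in most genes (76 and 74 of 77 above the mean), the 3 Mcidas libraries are blue in most (5, 5 and 9 of 77 above), and Rpl26 has the strongest contrast. Rows are labelled for some of the genes with values in the text.

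Of the 83 tested genes, Rpl26 and Rplp2 were called higher in GemC1 than in GFP libraries, which makes 2, and none was called lower. Over all 19572 genes tested, 3.86% were called higher and 1.32% lower by edgeR's quasi-likelihood test at a Benjamini-Hochberg adjusted p under 0.05. The median log2 fold change of the 83 genes was 0.07, against -0.00 over all genes, with 69 of the 83 above 0. Without GFP replicate 1 this median was 0.13, without GFP replicate 2 it was 0.03, and without GemC1 replicate 2 it was 0.05. An offset for GC content and exon length gave 0.04, with 0.01 over all genes. Library totals without TMM gave 0.12, with 0.05 over all genes. The libraries of the groups did not overlap for 12 genes that were higher in GemC1 and for no gene that was lower, against 13.2% and 11.7% of all genes. At an unadjusted p under 0.05 there were 6 genes higher and 0 lower, against 10.4% and 9.03% of all genes. The 6 became 14 without GFP replicate 1, 2 without GFP replicate 2, 3 without GFP replicate 3 and 2 without GemC1 replicate 2. They became 18 with library totals in place of TMM, a setting that also raised the median over all genes. With the offset for GC content and length they became 3. DESeq2 called the same 2 genes higher and none lower, against 5.9% and 3.39% of all genes. The large subunit genes had a median log2 fold change of 0.08, and the small subunit genes 0.05.

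Rpl26, a large subunit protein beside the exit of the peptide tunnel (chr11:68901583-68906989, plus strand), had 16.53, 31.5 and 14.6 CPM in GemC1 libraries, 7.60, 8.34 and 8.44 CPM in Mcidas libraries, and 9.76, 8.13 and 8.19 CPM in GFP libraries. All 3 GemC1 libraries lay above all other libraries, and GemC1 replicate 2 lay highest. The log2 fold change of GemC1 over GFP was 1.27 ± 0.25 (SE; edgeR adjusted p = 0.0105), and without GemC1 replicate 2 it was 0.85. Mcidas over GFP gave -0.10 ± 0.25 (edgeR adjusted p = 0.933). By its own counts, without those on its pseudogenes, Rpl26 was a weakly expressed member. Its ratio to Rpl27, another large subunit gene, was 0.160, 0.299 and 0.172 in GemC1 libraries, 0.109, 0.108 and 0.109 in Mcidas libraries, and 0.109, 0.109 and 0.103 in GFP libraries.

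The count of Rpl26 depends on a near-identical copy. The processed pseudogene Gm15772 (chr5:3236431-3236868) shares 214 windows of 75 bases, the read length, with Rpl26, and over the 9 libraries it received 6114 counts, against 3513 for Rpl26. Gm15772 had 21.8, 16.1 and 19.7 CPM in GemC1 libraries, 20.6, 20.9 and 20.9 CPM in Mcidas libraries, and 23.7, 23.4 and 23.3 CPM in GFP libraries. The copy was thus lower in every GemC1 library than in every GFP library, and lowest in replicate 2, where Rpl26 was highest. Its log2 fold change of GemC1 over GFP was -0.29 ± 0.13 (edgeR adjusted p = 0.233). Rpl26 and its 4 pseudogenes together had 39.2, 49.3 and 35.7 CPM in GemC1 libraries, 29.5, 30.6 and 30.7 CPM in Mcidas libraries, and 34.8, 32.9 and 32.7 CPM in GFP libraries. The GemC1 libraries still lay above all others, with a log2 fold change over GFP of 0.31 ± 0.12, but the sum was not called (edgeR adjusted p = 0.180). How reads were divided between the gene and its copy was not tested, so the size of the change in Rpl26 is uncertain. The call was also lost without GFP replicate 2 (log2 fold change 1.23, edgeR adjusted p = 0.0585) and without GFP replicate 3 (1.23, edgeR adjusted p = 0.0579).

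Such copies received few counts beside most of the family, but how reads were divided was not tested. Of 77 subunit genes, 76 share at least 1 window of 75 bases with another annotated gene. The shared windows made up a median of 19.3% and at most 78.1% of a gene's windows. In the 73 with pseudogenes of that kind, the pseudogenes held a median of 1.31% of the gene's own counts. Rpl26 and Rpl29 (62.7%) were the only 2 in which they held 20% or more.

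Rplp2, an acidic protein of the stalk that recruits elongation factors to the large subunit (chr7:141447370-141451585, plus strand), had 130, 116 and 112 CPM in GemC1 libraries, 94.4, 105 and 111 CPM in Mcidas libraries, and 96.2, 86.6 and 98.2 CPM in GFP libraries. The GemC1 libraries lay above all others, and the Mcidas libraries overlapped the GFP libraries. The log2 fold change of GemC1 over GFP was 0.35 ± 0.09 (SE; edgeR adjusted p = 0.0462), and that of Mcidas over GFP was 0.14 ± 0.09 (edgeR adjusted p = 0.622). The call lay close to the threshold and was lost in 11 of 21 alternative fits, with adjusted p up to 0.180 and log2 fold changes of 0.26 to 0.40. Those 11 include the fits without any 1 of the GemC1 libraries, any 1 of the GFP libraries or Mcidas replicate 2.

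The other proteins of the stalk did not pass the test. Rplp1, the partner of Rplp2, averaged 89.9 ± 3.08 CPM in GemC1 libraries and 81.5 ± 2.69 CPM in GFP libraries (SD, n = 3 each; log2 fold change 0.14, edgeR adjusted p = 0.369). Other genes that share 75-base windows with Rplp1 had 203, 12 and 201 counts in GFP libraries, and 4 to 12 in the other libraries. With its 2 pseudogenes added, Rplp1 averaged 85.2 ± 5.30 CPM in GFP libraries (SD, n = 3; log2 fold change 0.08, edgeR adjusted p = 0.678). Rplp0, the stalk base, had a log2 fold change of 0.12 (edgeR adjusted p = 0.461). The ratio of Rplp2 to Rplp1 was 1.33 ± 0.0767 in GemC1 libraries, 1.33 ± 0.0411 in Mcidas libraries and 1.15 ± 0.0684 in GFP libraries (SD, n = 3 each). This ratio leaves out the counts on the Rplp1 pseudogenes.

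Rplp2 lies near Pidd1, which was called higher with both factors, and Pnpla2, which was called higher with GemC1 only. Pidd1, the p53-induced death domain protein, begins 3344 bases upstream of Rplp2 on the opposite strand. Its log2 fold change was 2.53 in GemC1 and 2.90 in Mcidas over GFP (edgeR adjusted p = 9.5e-07 and 3.1e-07). Pnpla2, a lipase gene 3612 bases downstream on the same strand, rose by 0.80 in GemC1 libraries (edgeR adjusted p = 0.00659). In Mcidas over GFP its log2 fold change was 0.47 (edgeR adjusted p = 0.121). Neither gene body overlaps Rplp2, and the library kits do not mark strand. Of the tested ribosomal protein genes, 4 (Rpl32, Rpl35a, Rplp2 and Rps27) had a neighbour within 5000 bases that was called higher in GemC1, and their median log2 fold change was 0.05, against 0.08 for the other 79. Rpl35a, 234 bases from the cilium gene Iqcg, which rose by 2.21 on the log2 scale in GemC1 libraries (edgeR adjusted p = 0.00609), had a fold change of -0.19 itself, the smallest of the subunit genes in that comparison.

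**Figure D4:**
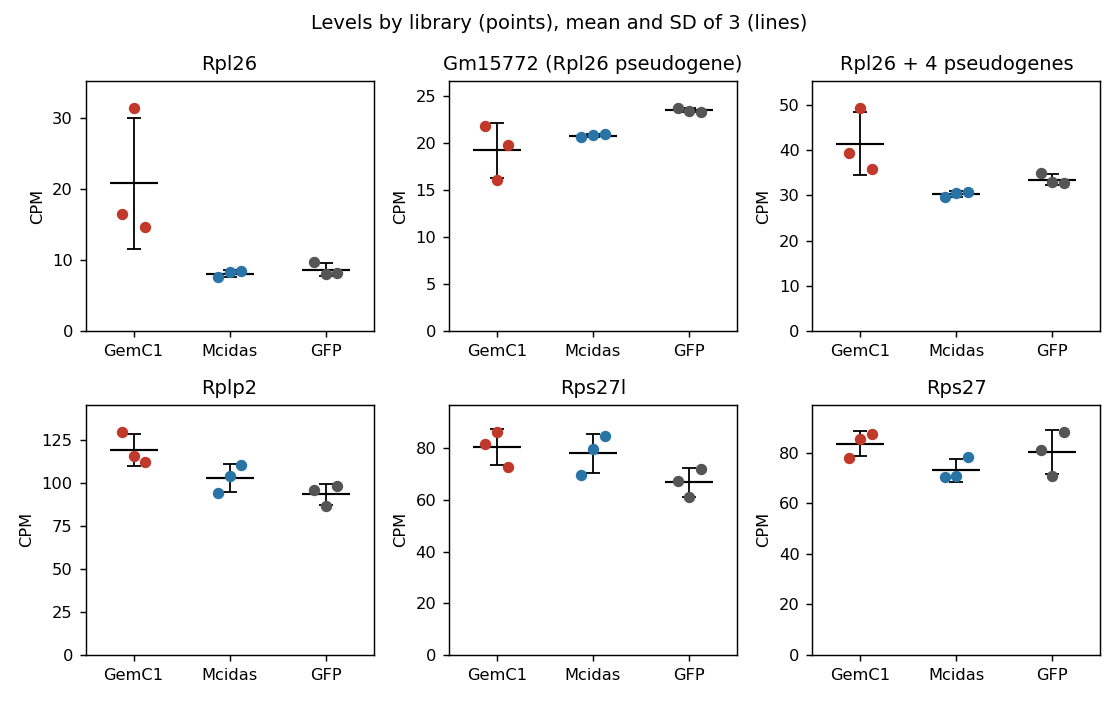
CPM of Rpl26, its pseudogene Gm15772, the sum of Rpl26 and its 4 pseudogenes, Rplp2, Rps27l and Rps27 in each library, with mean and SD of 3 as lines. The Rpl26 panel shows GemC1 libraries at 14.6 to 31.5 CPM, above 7.60 to 9.76 in the others, while Gm15772 is lower in GemC1 (16.1 to 21.8 CPM) than in GFP (23.3 to 23.7 CPM).

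Among the members tied to p53, no call was made apart from Rpl26. Rps27l, a paralogue of Rps27 that p53 induces, had 81.7, 86.5 and 72.7 CPM in GemC1 libraries, 69.7, 79.6 and 84.6 CPM in Mcidas libraries, and 67.4, 61.0 and 71.9 CPM in GFP libraries. All GemC1 libraries lay above all GFP libraries, by a narrow margin, and Mcidas replicate 1 fell inside the GFP range. The log2 fold changes over GFP were 0.27 ± 0.10 for GemC1 (edgeR adjusted p = 0.174) and 0.22 ± 0.10 for Mcidas (edgeR adjusted p = 0.397). Mcidas over GFP gave no larger fold change in any other tested ribosomal protein gene.

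Rps27 itself had 77.8, 85.2 and 87.2 CPM in GemC1 libraries, 70.3, 70.6 and 78.2 CPM in Mcidas libraries, and 81.2, 70.9 and 88.3 CPM in GFP libraries, and its groups overlapped. The ratio of Rps27l to Rps27 was 1.05, 1.01 and 0.834 in GemC1 libraries, 0.991, 1.13 and 1.08 in Mcidas libraries, and 0.829, 0.860 and 0.814 in GFP libraries. The Mcidas ratios lay above all GFP ratios, while GemC1 replicate 3 lay inside the GFP range.

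The Mdm2-binding proteins were not called. Rpl5, which enters the large subunit with the 5S RNA, had 44.4, 49.4 and 49.3 CPM in GemC1 libraries, 50.7, 46.03 and 51.1 CPM in Mcidas libraries, and 53.1, 48.0 and 50.9 CPM in GFP libraries, with overlapping groups (log2 fold change -0.09 ± 0.09, edgeR adjusted p = 0.668, for GemC1 over GFP). Rpl11, its partner in the 5S particle, had log2 fold changes over GFP of 0.03 for GemC1 and -0.15 for Mcidas. Rpl23 had -0.01 for GemC1 and -0.12 for Mcidas, and neither gene was called (edgeR adjusted p of 0.680 or more).

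The other paralogues were not called in any comparison. The ratio of Rpl22l1 to Rpl22, a pair in which the 2 proteins replace each other in the ribosome, was 0.409 ± 0.0329 in GemC1 libraries, 0.350 ± 0.0590 in Mcidas libraries and 0.384 ± 0.0421 in GFP libraries (SD, n = 3 each). The ratio of Rpl36al to Rpl36a was 0.712 ± 0.0823 in GemC1, 0.656 ± 0.0597 in Mcidas and 0.642 ± 0.0661 in GFP libraries. Rpl7l1, a paralogue with a role in subunit assembly, stood at a ratio to Rpl7 of 0.689 ± 0.0377 in GemC1, 0.695 ± 0.0290 in Mcidas and 0.641 ± 0.0538 in GFP libraries. These spreads overlap between all groups.

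Against GFP, Mcidas changed none of the 83 tested genes in the edgeR test, while 4.03% of all genes were called higher and 0.327% lower. At an unadjusted p under 0.05 there were 0 genes higher and 8 lower, against 8.65% and 3.97% of all genes, and DESeq2 called none higher and 1 lower, Rps24, against 5.42% and 0.649% of all genes. The median log2 fold change was -0.12, against -0.03 over all genes, and 80 of the 83 values were below 0. The exceptions were Rps27l, Rplp2 and Rpl7l1. Without GFP replicate 1 the median was -0.05, so its size rested largely on that library. Library totals without TMM gave -0.07, with 0.01 over all genes. The 8 genes became 2 without GFP replicate 1, 3 without GFP replicate 3, 4 without Mcidas replicate 1 and 3 without Mcidas replicate 2. With library totals in place of TMM they became 3. The groups did not overlap for 16 genes that were lower in Mcidas and for none that was higher, against 8.87% and 10.7% of all genes.

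Rps24, a small subunit protein mutated in some human cases of Diamond-Blackfan anaemia (chr14:24487125-24496959, plus strand), had 67.0, 75.3 and 65.9 CPM in Mcidas libraries and 92.4, 84.7 and 86.7 CPM in GFP libraries. Every Mcidas library lay below every GFP library. The log2 fold change was -0.34 ± 0.09 (SE; edgeR adjusted p = 0.0661), and it was called without the low-count filter (edgeR adjusted p = 0.0422) and by DESeq2 (adjusted p = 0.0276). With the counts of its 7 pseudogenes added, the log2 fold change was -0.28 ± 0.09 (edgeR adjusted p = 0.108). The GemC1 libraries had 78.8, 94.8 and 88.1 CPM and overlapped the GFP libraries.

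The remaining genes at the ends of this comparison were not called. Rpl35a, a large subunit protein also linked to that anaemia, had 16.8, 16.7 and 17.4 CPM in Mcidas libraries and 19.7, 21.5 and 25.8 CPM in GFP libraries, without overlap (log2 fold change -0.40 ± 0.14, edgeR adjusted p = 0.198). Rpsa, which is also known as a laminin receptor, had 99.5, 90.8 and 126 CPM in Mcidas libraries and 135, 109 and 134 CPM in GFP libraries, with overlap (-0.26 ± 0.12, edgeR adjusted p = 0.424, and -0.40 without Mcidas replicate 3). With its 17 pseudogenes added, Rpsa had 122, 117 and 132 CPM in Mcidas libraries and 156, 127 and 144 CPM in GFP libraries. The log2 fold change of that sum was -0.20 ± 0.09 (edgeR adjusted p = 0.351). Rps6, the small subunit protein that S6 kinase phosphorylates, had 61.8, 61.6 and 65.1 CPM in Mcidas libraries and 78.9, 70.7 and 70.7 CPM in GFP libraries, without overlap (-0.23 ± 0.09, edgeR adjusted p = 0.250).

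Between the 2 factors the family as a whole stood higher in GemC1 than in Mcidas libraries, although edgeR called no single gene. The median log2 fold change of GemC1 over Mcidas was 0.21, against -0.00 over all genes, and 80 of 83 values were above 0. It was 0.20 in large subunit and 0.21 in small subunit genes. The groups did not overlap for 49 genes that were higher in GemC1 and for none that was lower, against 9.07% and 7.64% of all genes. At an unadjusted p under 0.05, 39 genes were higher and 0 lower, against 6.37% and 6.67% of all genes. Over all genes edgeR called 0.0153% higher and 0.0358% lower, so few genes of any kind passed in this comparison. DESeq2 called 5 members higher, among them Rpl13, Rpl26, Rpl34 and Rpl27, and none lower, against 1.27% and 1.94% of the genes to which it gave an adjusted p. Rpl13 is named because of this count, after its values were seen.

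The size of this difference depended on a correction for gene composition and on single libraries. With an offset for GC content and exon length the median was 0.13, and 17 genes had an unadjusted p under 0.05. Without GemC1 replicate 2 the median was 0.15 and the count 22, without Mcidas replicate 1 the count was 24, and without Mcidas replicate 2 it was 22. Leaving out each of the 9 libraries in turn gave medians of 0.15 to 0.23. Summed microglia markers, all 14 of them detected, moved with the groups, at 87.2 to 120 CPM in GemC1, 51.4 to 78.6 CPM in Mcidas and 31.9 to 48.6 CPM in GFP libraries, and the radial glia and neuron sums given above also differed between GemC1 and Mcidas libraries. Their part in the result was not tested, and whatever the year code of the Mcidas tables stands for cannot be told apart from the plasmid.

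After Rpl26 (log2 fold change 1.36 ± 0.25, edgeR adjusted p = 0.118, and 0.45 with its pseudogenes added), the largest differences belonged to Rpl27 and Rpl34. Rpl27 had 104, 105 and 85.3 CPM in GemC1 libraries and 69.9, 76.9 and 77.8 CPM in Mcidas libraries (0.39 ± 0.10, edgeR adjusted p = 0.181). Rpl34 had 37.0, 42.5 and 39.5 CPM in GemC1 libraries and 33.5, 28.6 and 30.6 CPM in Mcidas libraries (0.36 ± 0.10, edgeR adjusted p = 0.200). Both genes code for large subunit proteins, and neither overlapped between the groups. The smallest differences were those of Rpl5 (-0.05 ± 0.09), Rpl21 (-0.00 ± 0.12) and Rps27l (0.04 ± 0.10), and their groups overlapped.

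Members studied for roles beyond general translation lay within the range of the family. Rpl38, needed in mouse embryos for translation of Hox messenger RNAs, had 42.2, 45.6 and 42.9 CPM in GemC1 libraries and 37.5, 41.0 and 36.0 CPM in Mcidas libraries, without overlap (0.19 ± 0.10, edgeR adjusted p = 0.435). Rps19, the gene most often mutated in Diamond-Blackfan anaemia, had 142, 117 and 110 CPM in GemC1 libraries and 118, 120 and 92.2 CPM in Mcidas libraries, with overlap (0.17 ± 0.13, edgeR adjusted p = 0.612). Rps27a, made as a fusion with ubiquitin, had 78.4, 99.2 and 92.4 CPM in GemC1 libraries and 70.0, 75.0 and 76.2 CPM in Mcidas libraries, without overlap (0.29 ± 0.10, edgeR adjusted p = 0.250).

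**Figure D5:**
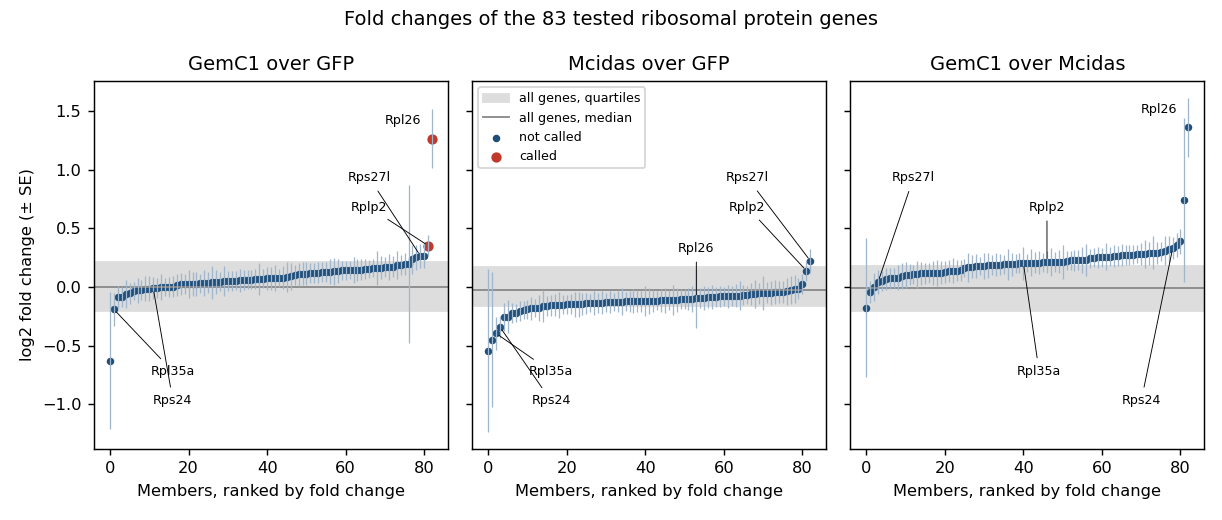
Log2 fold changes (± SE) of the 83 tested ribosomal protein genes, ranked within each of the 3 comparisons, beside the median and quartiles of all 19572 genes tested. The medians are 0.07, -0.12 and 0.21 in the 3 panels, and the only called members are Rpl26 and Rplp2 in GemC1 over GFP.

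Further members with paralogues or known roles were also uncalled, with log2 fold changes of GemC1 over Mcidas between 0.05 and 0.21. Rpl3, which lines the peptidyl transferase centre, had 131, 137 and 145 CPM in GemC1 libraries and 128, 125 and 146 CPM in Mcidas libraries, with overlap. Rpl13a, which in human monocytes also acts in translational silencing, had 127, 145 and 134 CPM in GemC1 libraries and 114, 115 and 121 CPM in Mcidas libraries, without overlap (0.21 ± 0.09, edgeR adjusted p = 0.328, and 0.11 with the offset for GC content and length). Between these lay Rpl7 (0.12), Rpl10 (0.17), Rpl22 (0.07), Rpl36a (0.19), Rpl39 (0.11), Rps4x (0.13) and Rps18 (0.12). Rps4l is annotated as a pseudogene and is not among the 91 genes.

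Calls among genes that build, feed and use ribosomes are given beside the shares of all genes that edgeR called. Those shares were 3.86% higher and 1.32% lower for GemC1 over GFP, and 4.03% and 0.327% for Mcidas over GFP. For GemC1 over Mcidas they were 0.0153% and 0.0358%. No call was made among 10 elongation factor genes, 19 genes of growth control such as Mtor and Myc, or 10 hosts of small nucleolar RNAs such as Gas5. For Mcidas over GFP, the median log2 fold change of the elongation list was -0.13, with all 10 values below 0. The growth control list had -0.07 (14 of 19 below 0), and the host list -0.01 (5 of 10 below 0). Of 38 initiation factor genes, 1 was higher in GemC1 than in GFP: Eif1, which guards start codon choice, averaged 264 ± 20.4 CPM in GemC1 libraries and 215 ± 3.89 CPM in GFP libraries (SD, n = 3 each; log2 fold change 0.29 ± 0.08, edgeR adjusted p = 0.0434). That call was lost in 13 of 21 alternative fits, among them those without any 1 of the Mcidas or GFP libraries and those without GemC1 replicate 1 or 2. The median of the initiation list was -0.00 for GemC1 over GFP and -0.09 for Mcidas over GFP, with 30 of 38 values below 0 in the latter.

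Of 63 tested genes of RNA polymerase I and ribosome assembly, 1 was lower with both factors. Over all genes, 1.32% were called lower in GemC1 than in GFP and 0.327% lower in Mcidas than in GFP. Nvl, an ATPase that releases assembly factors from the large subunit precursor, averaged 42.0 ± 6.51 CPM in GemC1 libraries, 47.9 ± 4.50 CPM in Mcidas libraries and 70.8 ± 6.42 CPM in GFP libraries (SD, n = 3 each). Its log2 fold changes over the shared GFP libraries were -0.75 ± 0.12 for GemC1 (edgeR adjusted p = 0.00323) and -0.56 ± 0.12 for Mcidas (edgeR adjusted p = 0.0186). The GemC1 call held in all 21 alternative fits. The Mcidas call was lost in 6, including those without Mcidas replicate 2 or 3 and without GFP replicate 2 or 3. The median of the list was -0.00 for GemC1 over GFP and -0.07 for Mcidas over GFP.

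Mitochondrial ribosomal proteins, coded by a separate set of 78 genes, had median log2 fold changes of 0.10 for GemC1 over GFP, -0.06 for Mcidas over GFP and 0.14 for GemC1 over Mcidas, with 68 of 78 values above 0 in the last. Of these genes, 2 were higher in GemC1 than in GFP and none was lower, against 3.86% and 1.32% of all genes. Mrpl24 averaged 62.3 ± 4.04 CPM in GemC1 libraries and 47.5 ± 2.93 CPM in GFP libraries (SD, n = 3 each; log2 fold change 0.39 ± 0.09, edgeR adjusted p = 0.0244). Mrpl53 averaged 48.0 ± 5.55 CPM in GemC1 libraries and 35.3 ± 3.54 CPM in GFP libraries (SD, n = 3 each; log2 fold change 0.44 ± 0.12, edgeR adjusted p = 0.0457). The Mrpl24 call was lost in 6 of 21 alternative fits, including those without GemC1 replicate 2 or 3 and without GFP replicate 2 or 3. The Mrpl53 call was lost in 11, including those without any 1 of the GFP libraries, GemC1 replicate 1 or 2, or Mcidas replicate 2 or 3.

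Among 11062 other genes whose average log2 CPM was 3 or more, the pattern most like the summed level of the family over the 9 libraries was that of Ntan1, with a Pearson correlation of 0.964. Ifitm2 (0.959), Ptpn1 (0.958), Tfpt (0.956) and Gm45713 (0.954) followed. Gm45713 overlaps the member Rpl13a on the same strand and shares 75-base windows with it, so its counts are not separate from the sum. These values describe 9 libraries that share 3 groups, and they were chosen as the highest of all candidates.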

How the data were processed

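The authors deposited raw counts of reads by Ensembl identifier, with a table per library. RNA was amplified from 10 ng with SMART-Seq v4, made into Nextera XT libraries and read for 75 bases, per the labels' protocols. Tools named without role in the submitters' processing notes are DESeq2 1.8.1, HTSeq 0.5.3 and STAR 2.5.2b, with build mm10. For strand setting and annotation release: not given in the sources used here. GENCODE M21 (GRCm38) matched 53274 identifiers; the other 105 took at most 0.0676% of a library.

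Low counts were removed with filterByExpr (minimum count 10, total 15). All 9 libraries entered 1 edgeR 4.0.16 quasi-likelihood fit (R 4.3.3, TMM scaling, robust, group as only term, two-sided), adjusted over all 19572 genes kept and called at 0.05. The script was checked on simulated counts with known changes. CPM are TMM-scaled. No label says that replicates came from separate litters, so the p-values reflect only the spread among these libraries, which may be technical. Replicates were not copies of each other (chi-square over degrees of freedom, 13.0 to 23.7).

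Genes named with values are every called member, the 3 largest and 3 smallest fold changes per comparison (average log2 CPM of at least 3), the 5 highest and 5 lowest levels per length, members with known roles, called genes of the other lists, and the 5 most alike genes. Any other gene is marked as picked later, and a few results of single genes are not reported here. The members and lists were chosen with earlier results of these data known. Pseudogenes sharing an unchanged 75-base window with a member were found in the transcript sequences.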

Additional observations from a re-analysis of the deposited data

How the results depend on the processing

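Of 1071 alternative values for single members, 14 lost a call, 6 gained one, and 30 uncalled values moved by more than 1 SE. The sign changed in 37 values of 14 results, such as Rpl21 in GemC1 over Mcidas, and none of these was called in either fit. Members called higher in GemC1 than in GFP numbered 2, and 1 when only the groups compared were fitted, with a GC content and length offset, or after near-identical pseudogene counts were added (an alternative chosen after seeing the data); leaving out each library gave 0 to 2. DESeq2 and the unfiltered fit each called 1 member lower in Mcidas than in GFP; in GemC1 over Mcidas they called 5 and 1 members higher. The GemC1 over Mcidas median was 0.129 with the offset. Unscaled library totals gave medians of 0.121 for GemC1 over GFP and -0.0737 for Mcidas over GFP, against 0.0731 and -0.116. The medians over all genes moved as well, to 0.046 and 0.0146, from -0.0004 and -0.0281. The causes were not tested.

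Over all genes, GemC1 over GFP had 756 higher and 259 lower calls; DESeq2 gave 1154 and 663, and lower calls were 165 with unscaled totals, 557 unfiltered and 160 with the offset. Mcidas over GFP had 64 lower, 127 by DESeq2 and 123 unfiltered. GemC1 over Mcidas had 3 higher and 7 lower, 196 and 298 by DESeq2, 66 and 129 unfiltered, and 2 lower when only those groups were fitted. Leaving out each library gave 443 to 877 higher and 32 to 267 lower for GemC1 over GFP, 557 to 951 and 29 to 99 for Mcidas over GFP, and 3 to 5 and 1 to 8 for GemC1 over Mcidas. Member medians ran from 0.0299 to 0.13, -0.155 to -0.0465 and 0.152 to 0.231 in these comparisons, and ratios of the count share from 1.06 to 1.14, 0.921 to 0.990 and 1.11 to 1.17. Other member counts stayed at 0.

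The labels do not say whether replicate numbers pair the libraries. Deviations from group means correlated between -0.0744 and 0.0465 for same-numbered libraries, and between -0.0768 and 0.118 for differently numbered ones. With 3 libraries a group, these values cannot decide whether libraries shared a litter or a preparation. With the replicate block 1 member was called higher in GemC1 than in GFP, and over all genes 147 were lower in GemC1 than in GFP and 3 lower in GemC1 than in Mcidas. With block and offset together these were 1, 87 and 3, and the GemC1 over Mcidas median was 0.128. Genes with few counts, such as Rpl10l, Rpl39l and Rpl3l, could not be compared at this depth.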
